A study of Mus musculus with 6 samples.

Results

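The connexin gap junction genes of the mouse brain were examined in whole brains of mice with 1 disrupted copy of the periphilin gene and of their wild-type littermates. The 7 genes were Gjd2, Gja1, Gjb6, Gjb2, Gjb1, Gjc3 and Gjc1, chosen by symbol out of 18193 genes with a probe set of their own. Each probe set annotated to exactly 1 of the 7 was taken, which gave 16 of the 45037 probe sets that are not manufacturer's controls. The set was assembled around Gjd2, which had been picked for its heterozygous against wild-type difference at 1 probe set. The genotype differences of all members are therefore given as a description, with intervals but with no test of their own.

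RNA came from whole, snap-frozen brains of 3 heterozygous periphilin knockout (periphilin+/-) males and of 3 C57BL/6 wild-type male littermates, all 2 months old, and each brain was hybridised to its own Affymetrix array. Periphilin (gene Pphln1) belongs to the HUSH complex, a repressor that keeps retroelements and a number of genes silent by way of H3 methylation. The sources used here do not give how the allele was disrupted or from how many founders the line came. The values are the deposited probe-set intensities on a linear scale, and each difference below is heterozygous minus wild type on the log2(intensity + 16) scale, on which the changes of dim probe sets are understated. Intensities of different probe sets are not comparable with each other, so no ranking of genes by level is made.

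The arrays were much alike, with pairwise correlations of log2 values from 0.978 to 0.985 across probe sets and median intensities from 31.6 to 34.5 in heterozygous and from 31.2 to 33.1 in wild-type brains. The ratio of the 3′ to the 5′ control probe set, a measure of RNA integrity, was 0.747 to 0.755 in heterozygous and 0.713 to 0.731 in wild-type brains for Gapdh, and 1.60 to 1.72 against 1.64 to 1.70 for beta-actin. Pphln1 itself overlapped between genotypes at its brighter probe set, with 269.2 to 352.8 in heterozygous and 290.2 to 314 in wild-type brains. At its dimmer probe set it was lower in each heterozygous brain, at 30.6 to 44.4 against 46.3 to 63.2. Whether either lies within the disrupted part of the gene is not known here, so neither checks the genotype. Markers of the main brain cell classes were present in each brain: all 16 listed astrocyte genes, 16 of 17 oligodendrocyte genes and all 12 neuron genes passed the filter on dim probe sets. In bulk tissue, fewer cells of a type and less RNA per cell cannot be told apart.

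Connexins are membrane proteins whose subunits assemble into hemichannels, and hemichannels of adjoining cells dock to form gap junctions that pass ions and small metabolites. In the brain each cell class uses its own set. Neurons, chiefly inhibitory interneurons and neurons of the inferior olive and retina, couple electrically through Cx36, the product of Gjd2. Astrocytes are joined into a network that spreads potassium and metabolites by Cx43 (Gja1) and Cx30 (Gjb6), with Cx26 (Gjb2) found mainly in the leptomeninges and in some astrocytes. Oligodendrocytes make Cx32 (Gjb1) and Cx29 (Gjc3), of which Cx29 sits in the inner myelin membrane, while Cx45 (Gjc1) occurs in vascular mural cells and in some neurons.

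The members lie on 6 chromosomes, and neighbour each other at 1 place: Gjb2 and Gjb6 are adjacent protein-coding genes on chromosome 14. None lies on chromosome 15, which carries Pphln1. Their promoters differ in base composition. RefSeq promoter windows (250 bases before to 50 after an annotated start, assembly GRCm38.p6) were matched by symbol for 6 of the 7 genes. One window is shown for each cell class, those of the neuronal, astrocyte and oligodendrocyte gene with the widest genotype difference in its class, all read 5′ to 3′ on the gene's strand. Capitals mark matches, on either strand, to the GC box GGGCGG, to the AP-1 motif TGANTCA, to the cyclic AMP response element TGACGTCA, to the TATA box TATAAA, or to the CCAAT sequence of the CAAT box. No matches overlap.
Gjd2, chr2:114013570-114013869, minus strand: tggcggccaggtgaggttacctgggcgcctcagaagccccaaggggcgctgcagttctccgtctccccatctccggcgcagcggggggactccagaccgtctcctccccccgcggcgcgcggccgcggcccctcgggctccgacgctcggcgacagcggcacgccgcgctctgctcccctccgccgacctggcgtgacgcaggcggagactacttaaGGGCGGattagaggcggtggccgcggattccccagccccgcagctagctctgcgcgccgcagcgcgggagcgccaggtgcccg
Gja1, chr10:56377050-56377349, plus strand: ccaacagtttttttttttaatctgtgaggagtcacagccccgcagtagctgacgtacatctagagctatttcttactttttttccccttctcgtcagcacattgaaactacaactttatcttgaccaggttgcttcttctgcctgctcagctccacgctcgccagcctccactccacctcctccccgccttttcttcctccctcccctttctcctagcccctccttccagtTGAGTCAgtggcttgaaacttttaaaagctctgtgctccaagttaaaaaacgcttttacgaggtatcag
Gjc3, chr5:137963049-137963348, minus strand: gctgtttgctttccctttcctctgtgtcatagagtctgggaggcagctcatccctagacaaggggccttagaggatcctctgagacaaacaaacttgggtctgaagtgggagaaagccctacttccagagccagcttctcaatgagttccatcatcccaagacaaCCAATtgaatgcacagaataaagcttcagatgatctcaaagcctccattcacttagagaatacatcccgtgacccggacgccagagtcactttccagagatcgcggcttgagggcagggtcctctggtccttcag

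The Gjd2 window is the richest of the set in CpG, with 41 CpG dinucleotides and 75.0% G or C, and 96.5% of the 32851 windows in the table have fewer CpGs. Its 1 match is a GC box that begins 33 bases before the start, a motif found in 35.7% of all windows. The Gja1 window has 8 CpGs, near the median of 7, and 1 AP-1 motif that begins 19 bases before the start, a motif held by 7.81% of windows. The Gjc3 window has 5 CpGs and a CCAAT match that begins 85 bases before the start, a motif that 37.4% of windows hold at some position. The windows of the neighbours Gjb2 and Gjb6 differ, with 27 CpGs and 2 GC boxes at Gjb2 and 6 CpGs and none of the 5 motifs at Gjb6. Gjb1 has 4 annotated starts with 2 to 15 CpGs, and the fourth has a TATA box 29 bases before the start, as 13.6% of windows do at some position. No window of these genes holds the cyclic AMP response element, present in 1.79% of all windows. A match is a description of the letters and does not show binding.

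**Figure D1:**
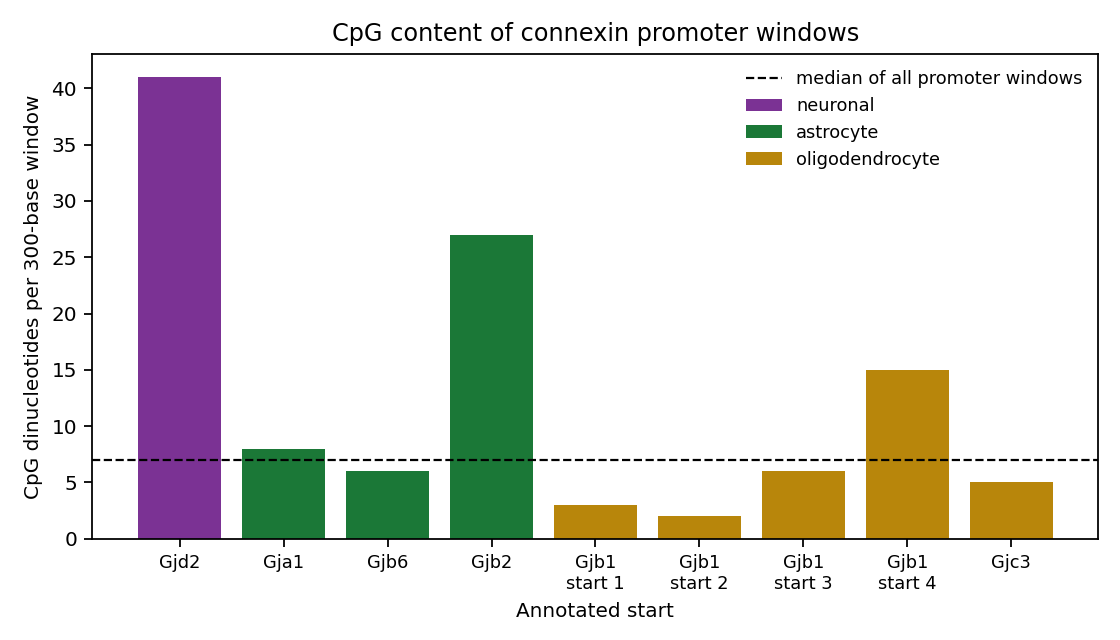
CpG dinucleotides in the 300-base promoter window of each annotated start of 6 connexin genes (bars, coloured by cell class), with the median of all windows as a dashed line. Gjd2 has 41 and Gjb2 has 27, against a median of 7, while 6 of the 9 windows hold 8 or fewer.

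Among the neuronal connexins, the 2 probe sets of Gjd2 gave different pictures. At the dimmer one, 1423019_at, intensity was 23.7, 32.4 and 34.0 in the heterozygous brains, against 12.6, 9.2 and 8.9 in the wild-type brains. Each heterozygous brain lay above each wild-type brain, and the wild-type values all fell below 18.4, the limit at or under which a probe set counted as dim. The group means were 30.0 ± 5.56 in heterozygous and 10.3 ± 2.08 in wild-type brains (SD, n = 3 each), a linear ratio of 2.93 and a log2 difference of 0.81 (SE 0.19, 95% confidence interval 0.38 to 1.23). This is the value for which the gene was chosen. The probe set passed the filter only through its heterozygous signal: its mean over the 6 arrays, taken on the log2 scale and converted back, was 18.6. With any 1 heterozygous brain left out it dropped below the filter, and with a pseudocount of 64 the difference was 0.34.

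The brighter Gjd2 probe set, 1435297_at, measured 111.3, 110.6 and 151.7 in heterozygous brains and 144, 115.9 and 95.8 in wild-type brains. The genotypes overlapped throughout their range. Means were 124.5 ± 23.6 and 118.6 ± 24.2 (SD, n = 3 each), and the difference of 0.07 had an interval of -0.30 to 0.43. Without heterozygous 3 or wild type 3 the sign turned, to -0.07 and -0.06. Interneurons are a main site of Gjd2 expression, and their markers are given beside these values: of 12 measured genes 5 were higher and 7 lower in sign (median -0.05), with summed intensities of 14032 to 15345 in heterozygous and 14804 to 15489 in wild-type brains. Highest by moderated t were the calcium-binding protein genes Calb2 and Pvalb, at 0.09 each, and lowest were the vesicular GABA transporter gene Slc32a1, at -0.17 (SE 0.11), and the transcription factor gene Dlx1, at -0.15 (SE 0.11). The part of these cells in the Gjd2 values was not tested.

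**Figure D2:**
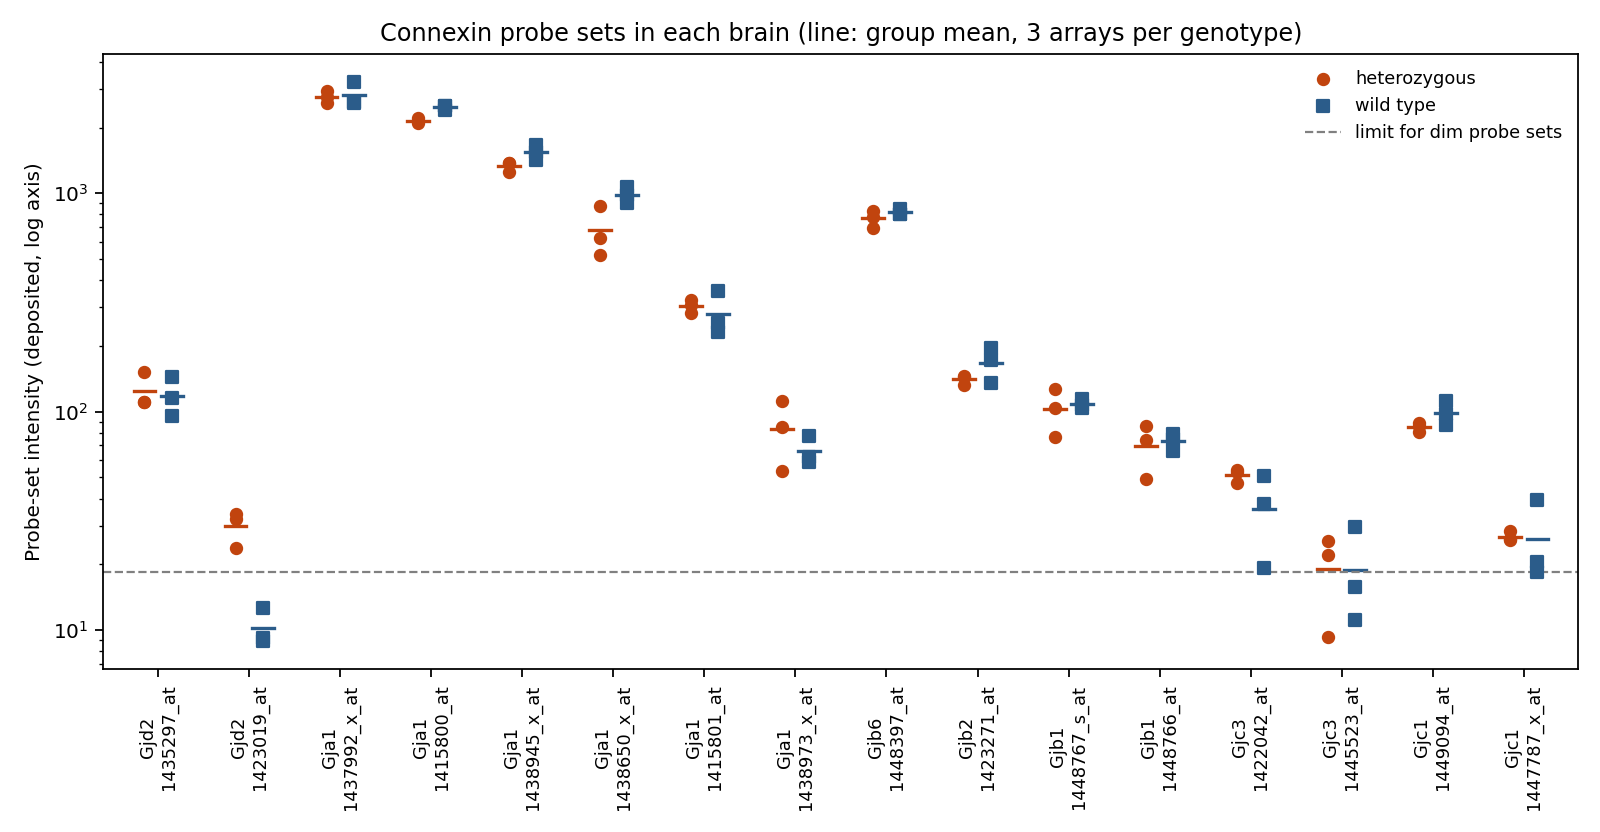
Deposited intensity of each of the 16 connexin probe sets in each brain (circles, heterozygous; squares, wild type; short lines, means of 3 arrays; log axis), with the limit for dim probe sets dashed. The genotypes are apart at Gjd2 1423019_at, the value for which the gene was chosen, where wild-type brains lie at 8.9 to 12.6. They are also apart at Gja1 1415800_at, 1438945_x_at and 1438650_x_at, and they overlap at the other 12. Over all tested probe sets the genotypes are apart for 5.43% on the higher and 4.81% on the lower side.

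Gja1, the main astrocyte connexin gene, has 6 probe sets, and at 3 of them each heterozygous brain lay below each wild-type brain, as at 4.81% of the 27022 probe sets tested. At 1415800_at intensity was 2143.8, 2096.3 and 2212.4 in heterozygous brains, against 2521.1, 2505 and 2412.9 in wild-type brains. The brains of a genotype differed little from each other, with a spread within genotypes larger than that of 0.862% of tested probe sets. Means were 2151 ± 58.4 and 2480 ± 58.4 (SD, n = 3 each), a difference of -0.20 (SE 0.07, interval -0.37 to -0.04), or 0.868 as a ratio.

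At 1438945_x_at the heterozygous brains measured 1378.8, 1373 and 1252.9 and the wild-type brains 1542.9, 1660.3 and 1418.1. The nearest brains, heterozygous 1 and wild type 3, were close. The difference was -0.20 (SE 0.09, interval -0.40 to -0.01). At 1438650_x_at the values were 523.4, 624.8 and 878.9 in heterozygous and 1074.1, 984.6 and 898.0 in wild-type brains. Heterozygous 3 lay just under wild type 3, and heterozygous 1 far below. The difference there was -0.56 (SE 0.16, interval -0.91 to -0.22), and it was -0.40 without heterozygous 1 and -0.76 without heterozygous 3.

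The other 3 Gja1 probe sets overlapped between genotypes. The brightest, 1437992_x_at, had 2597.4, 2925.9 and 2767.3 in heterozygous brains, against 2628.2, 3230.4 and 2581.9 in wild-type brains, a difference of -0.02 (interval -0.24 to 0.20). In this probe set wild type 2 was highest and the other wild-type brains were among the lowest. At 1415801_at, heterozygous values of 283.8, 325.5 and 308.3 stood against wild-type values of 231.6, 254.9 and 356.0 (0.14, interval -0.18 to 0.45), and the difference was 0.02 without wild type 1 and 0.31 without wild type 3. The dimmest, 1438973_x_at, had 112.2, 84.9 and 53.4 against 77.3, 62 and 58.8 (0.24, interval -0.22 to 0.70). It was 0.03 without heterozygous 1, 0.48 without heterozygous 3 and -0.01 with the 3′ to 5′ control ratio as a covariate. In sign, 4 were thus lower and 2 higher, with a median of -0.11. The 6 probe sets share 1 transcript source and are not replicates, and 4 of them carry the manufacturer's _x_at suffix, which marks probes that may also match other sequences. Averaged over all 6 as deviations from each probe set's mean, Gja1 lay between -0.07 and -0.02 in the heterozygous and between 0.02 and 0.08 in the wild-type brains, a difference of -0.10 on the log2 scale.

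The other astrocyte connexins were lower in sign at their single probe sets and overlapped between genotypes. Gjb6, at 1448397_at, measured 833.2, 694.9 and 777.1 in heterozygous and 850.9, 804.3 and 808.0 in wild-type brains. There, 2 of 3 heterozygous brains lay below all wild-type brains. The difference was -0.10 (SE 0.09, interval -0.29 to 0.10). Gjb2, at 1423271_at, measured 146.1, 132.5 and 144.4 in heterozygous and 172.7, 135.1 and 195.2 in wild-type brains. Wild type 2 lay among the heterozygous values, and the other wild-type brains above them. The difference was -0.21 (SE 0.14, interval -0.52 to 0.09), and it was -0.11 to -0.35 with single brains left out.

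Astrocyte markers went both ways in sign. Of 16 genes 8 were higher and 8 lower in sign (median -0.02, against 0.01 over the 13024 genes tested, and -0.07 with all tested probe sets of a gene averaged), none passed the adjusted threshold, and summed intensities were 29448 to 33294 in heterozygous and 30021 to 32710 in wild-type brains. Highest by moderated t were the acyl-CoA synthetase gene Acsbg1, at 0.25 (SE 0.09), and the aldolase gene Aldoc, at 0.16 (SE 0.09). Lowest were the glutamate transporter gene Slc1a3, at -0.27 (SE 0.12), and the intermediate filament gene Gfap, at -0.40 (SE 0.20). As deviations from the mean of the 6 brains, Gfap was at 0.24, -0.43 and -0.41 in heterozygous and 0.40, -0.20 and 0.41 in wild-type brains. Slc1a3 was at -0.15, 0.04 and -0.30 in heterozygous and 0.39, -0.01 and 0.03 in wild-type brains. Both overlapped between genotypes, with wild type 1 high in each. Leptomeningeal markers, of cells that also make Cx26, were 7 higher and 6 lower in sign among 13 (median 0.00), with sums of 2836 to 3266 in heterozygous and 2777 to 3364 in wild-type brains. The part of either cell type in the connexin values was not tested.

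**Figure D3:**
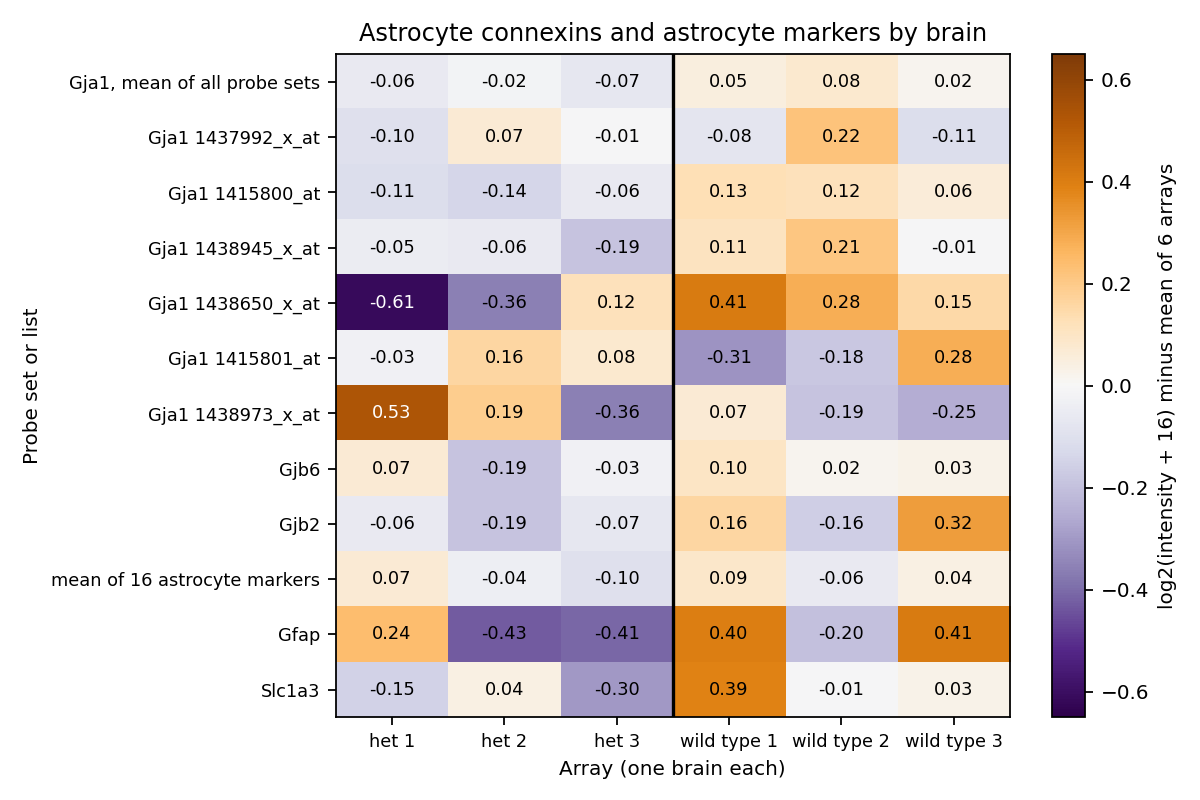
Deviation of each brain from the mean of the 6 arrays, in log2(intensity + 16), for the Gja1 probe sets, Gjb6, Gjb2, the mean of 16 astrocyte markers, Gfap and Slc1a3 (rows; columns are single brains, heterozygous left of the line). Gfap and Slc1a3 are the 2 lowest of the 16 markers by moderated t, and 8 of the 16 were higher in sign. The heterozygous brains are below 0 and the wild-type brains above 0 for the mean of the Gja1 probe sets and for 1415800_at, whereas the mean of the astrocyte markers runs from -0.10 to 0.07 in heterozygous and from -0.06 to 0.09 in wild-type brains.

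The oligodendrocyte connexins overlapped between genotypes at each probe set. Gjb1, mutated in X-linked Charcot-Marie-Tooth neuropathy in humans, measured 126.8, 103.7 and 76.5 at 1448767_s_at in heterozygous brains, against 114.8, 107.3 and 104.2 in wild-type brains (-0.10, SE 0.16). The wild-type brains lay within the range of the heterozygous ones. At 1448766_at it measured 49.4, 85.6 and 73.9 against 74.7, 66.1 and 79.3 (-0.08, SE 0.18). The order of the heterozygous brains differed between both Gjb1 probe sets: heterozygous 1 was highest at the first and lowest at the second.

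Gjc3 was dim. At 1422042_at it measured 54.1, 53.0 and 47.1 in heterozygous brains and 50.9, 37.7 and 19.2 in wild-type brains. Here 2 of 3 heterozygous brains lay above all wild-type brains, and wild type 3 stood low. The difference was 0.42 (SE 0.22, interval -0.07 to 0.92), and it was 0.17 without wild type 3 and 0.63 without wild type 1. The second Gjc3 probe set, 1445523_at, was the 1 member that the dim filter removed, just below the limit with a back-converted mean of 18.1, against 18.6 for the dimmest member that passed. It measured 25.7, 22.0 and 9.3 in heterozygous and 29.5, 11.1 and 15.7 in wild-type brains. Of 16 measured oligodendrocyte and myelin genes, 6 were higher and 10 lower in sign (median -0.03), with sums of 27936 to 30591 in heterozygous and 27349 to 30591 in wild-type brains. They ranged by moderated t from the myelin genes Mbp, at 0.10, and Mog, at 0.06, to the tight junction gene Cldn11, at -0.21 (SE 0.12), and the cytoskeletal gene Ermn, at -0.26 (SE 0.11).

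Gjc1 also overlapped. At 1449094_at it measured 80.4, 88.3 and 86.2 in heterozygous and 87.1, 112.2 and 97.3 in wild-type brains, with 1 wild-type brain inside the heterozygous range (-0.18, SE 0.13, interval -0.48 to 0.12). At the dim 1447787_x_at it measured 28.3, 26.2 and 25.9 against 39.2, 20.6 and 18.5 (0.06, SE 0.21). There the heterozygous brains lay between wild type 1 and the other wild-type brains. Vascular markers were 8 higher and 5 lower in sign among 13 (median 0.04), with sums of 3975 to 4475 in heterozygous and 3986 to 4550 in wild-type brains.

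**Figure D4:**
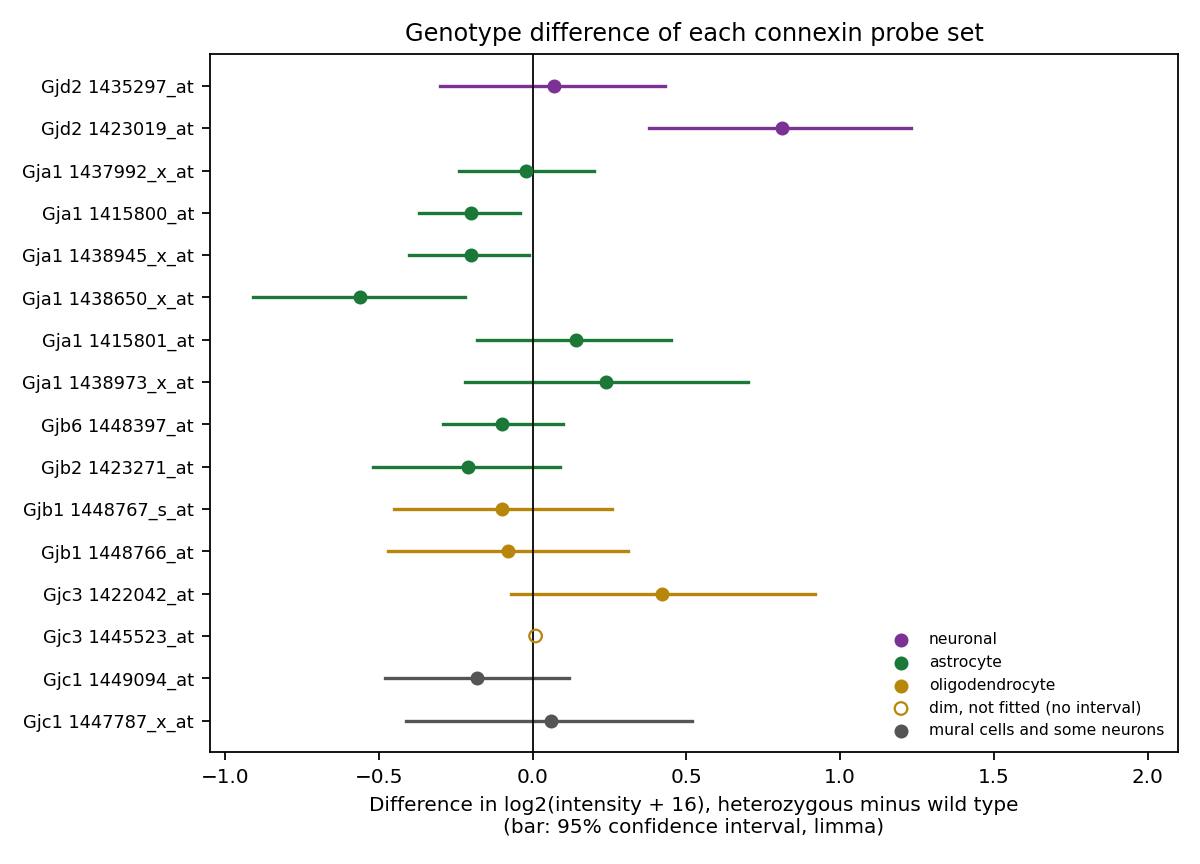
Genotype difference of each connexin probe set, heterozygous minus wild type in log2(intensity + 16), with 95% confidence intervals from limma, coloured by cell class (open circle, dim probe set not fitted). The intervals are not adjusted for the number of probe sets. Those of Gjd2 1423019_at, the value for which the gene was chosen, and of 3 Gja1 probe sets do not include 0. Those of the other 11 fitted probe sets do. Over all tested probe sets, 2.43% were past an unadjusted limma p of 0.05 on the higher side and 2.40% on the lower. No member was called after adjustment, against 0.0148% of all tested probe sets.

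Set side by side by cell class, the probe sets were mixed in sign among astrocyte and oligodendrocyte genes. The 2 neuronal probe sets, both of Gjd2, were higher in sign, but 1 of them is the value for which the gene was chosen. The other, at 0.07, turned sign without heterozygous 3 or wild type 3. The 8 astrocyte probe sets were 2 higher and 6 lower (median -0.15), and the 3 tested oligodendrocyte probe sets were 1 higher and 2 lower (median -0.08). With each gene represented by its brightest tested probe set, Gjd2 lay at 0.07, the 3 astrocyte genes at -0.02, -0.10 and -0.21, and the oligodendrocyte genes at -0.10 and 0.42. Differences between classes were not tested.

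In the limma fit over the whole table, none of the 15 member probe sets that passed the filter was called at an adjusted p of 0.05, and 4 of all 27022 were, or 0.0148%. Without adjustment, 1 member was past 0.05 on the higher side, where 2.43% of all probe sets were, and 3 on the lower side, where 2.40% were. The 1 higher member is the Gjd2 probe set for which the gene was chosen, and the 3 lower ones are Gja1. They are also the 4 members whose genotypes did not overlap. Across all probe sets the genotypes were apart for 5.43% on the higher and 4.81% on the lower side. Since this contrast was used to choose the set, nothing is read from these counts.

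The scatter of all probe sets by level shows what the array measured around the members. Tested probe sets were ordered by mean intensity and split into 10 groups of nearly equal size. In the dimmest group, with means from 18.5 to 25.7, the central 95% of differences ran from -0.45 to 0.52, and in the brightest group, with means from 824, from -0.22 to 0.21. Gja1 1438650_x_at, with a mean of 831 and a difference of -0.56, is at the lower end of the brightest group, which also holds Gja1 1415800_at and 1438945_x_at, at -0.20 each. Gjd2 1423019_at is in the dimmest group. Because the members were chosen on this contrast, their places in the scatter are a description.

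**Figure D5:**
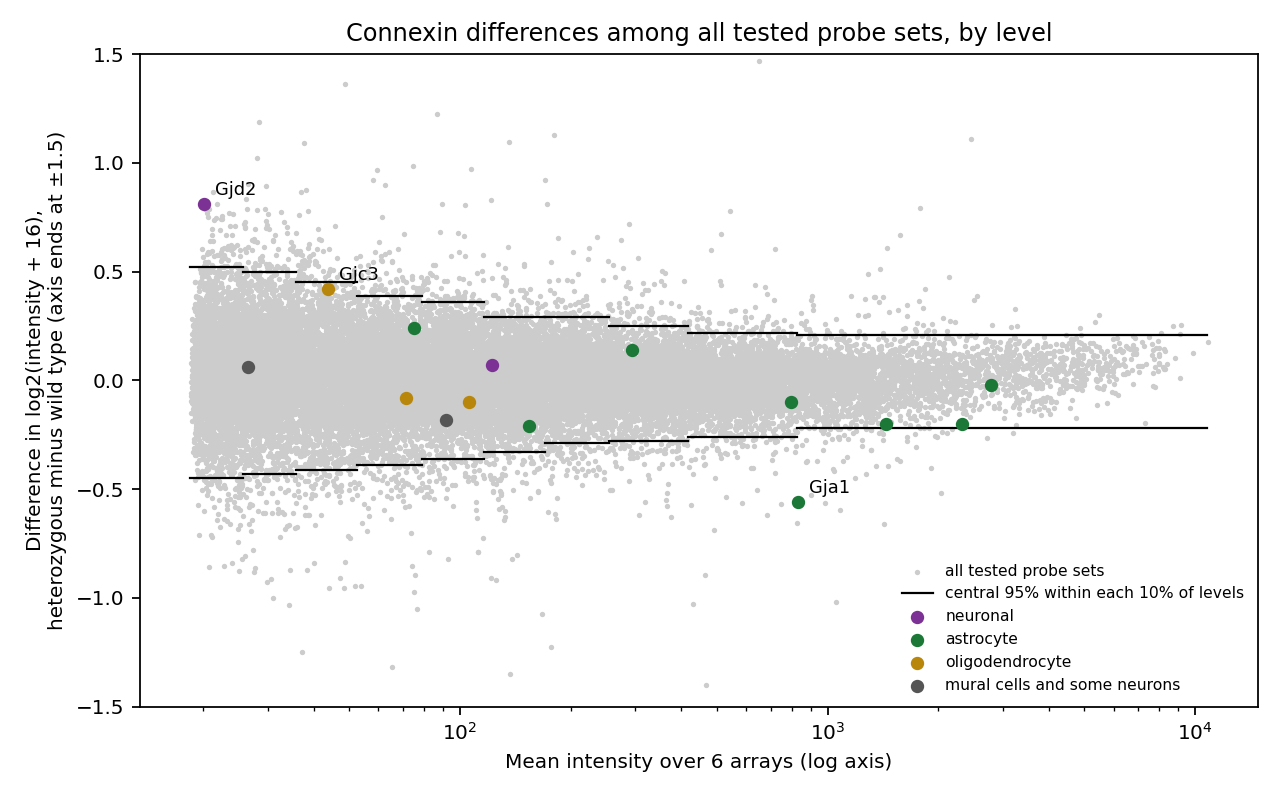
Log2 difference (heterozygous minus wild type) of every tested probe set against its mean intensity over 6 arrays (log axis), with the 15 tested connexin probe sets coloured by class and black lines for the central 95% of differences within each 10% of probe sets by level. Names mark Gjd2 at 0.81, the value for which the gene was chosen, Gjc3 at 0.42 and Gja1 at -0.56, and the vertical axis leaves out the 11 probe sets beyond 1.5 in size.

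The rest of the family was mostly not measurable. Of 13 other connexin genes and 3 pannexin genes, 3 had a tested probe set: Gja4, an endothelial connexin gene, and the pannexin genes Panx1 and Panx2, whose products form single-membrane channels. None was called with limma, against 0.0148% of all probe sets. At an unadjusted limma p of 0.05 there were 0, where 2.43% of all probe sets were past it on the higher side and 2.40% on the lower. With 3 probe sets, nothing is read from these counts. Gja4 measured 59.2, 37.4 and 39.6 in heterozygous and 46.9, 26.2 and 31.4 in wild-type brains (0.28, SE 0.21, limma adjusted p = 0.956). Panx1 measured 98.4, 81.8 and 130.2 against 82.9, 85.9 and 95.3 (0.18, SE 0.16, limma adjusted p = 0.958). Panx2, on chromosome 15 with Pphln1, measured 163.7, 170.3 and 150.0 against 222.4, 137.1 and 175.8 (-0.11, SE 0.15, limma adjusted p = 0.968). The genotypes overlapped at each of these 3. Gja3, Gja5, Gja10, Gjb5, Gjd4, Gje1 and Panx3 had probe sets below the dim limit, at means of 1.14 to 9.38. The other genes of the list were not analysed here.

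Genes whose products bind, traffic or modify connexins were listed by name as gap junction partners, and 22 of 25 were measured. None was called, against 0.0148% of all probe sets. Of the 22, 1 had an unadjusted p below 0.05 on the higher side, where 2.43% of all probe sets did, and 0 on the lower, where 2.40% did. In sign 14 were higher and 8 lower (median 0.04, or -0.01 with all tested probe sets of a gene averaged). Camk2a, a subunit of the calmodulin kinase that phosphorylates Cx36, measured 2040.3, 2809.7 and 2667.8 in heterozygous brains, against 1897.7, 1687.8 and 1772.1 in wild-type brains. Each heterozygous brain lay above each wild-type brain, as at 5.43% of all probe sets (0.47, SE 0.12, limma adjusted p = 0.956). Src, a tyrosine kinase that phosphorylates Cx43, was next at 0.19 (SE 0.13). Lowest were Nedd4l, a ubiquitin ligase gene, at -0.18 (SE 0.09), and Cdh2, the neural cadherin gene, at -0.13 (SE 0.08). At both, each heterozygous brain lay below each wild-type brain, as at 4.81% of all probe sets. Neuron markers were 10 higher and 2 lower in sign among 12 (median 0.07), led by Uchl1 at 0.20 (SE 0.09) and Stmn2 at 0.12, with Syp at -0.05 and Nefm at -0.04 lowest.

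The probe sets whose profile over the 6 brains came closest to a member's were found by the root mean square difference of centred log2 values. For Gjd2 1423019_at they were Hephl1 (0.137), a copper oxidase gene, Spsb4 (0.156) and Kifbp (0.159), at differences of 0.79, 0.60 and 0.64. Hephl1 was dim as well, at 24.2, 33.6 and 31.1 in heterozygous and 18.6, 7.4 and 6.6 in wild-type brains. For Gja1 1437992_x_at they were the integrin gene Itgav (0.021), the small GTPase gene Ralb (0.0263) and Znrd2 (0.0285). That profile varied little, and 6793 probe sets lay within 0.15 of it. For Gjc3 1422042_at they were Car15 (0.0695), Rbm27 (0.0822) and the topoisomerase gene Top1 (0.0825), each low in wild type 3. Only 6 brains enter each comparison of profiles, and 27022 probe sets were compared.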

How the data were processed

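The authors deposited linear intensities, with 1 value for each probe set on each array; the sources used here do not name the summarising software. The authors' scaling shows in the values: after trimming 2% at either end, each array averaged 150. Labelled cRNA was prepared with oligo(dT) priming, per the labels' protocols, which favours 3′ ends. Of 45101 probe sets, 64 controls were set apart, and 34945 of the others had 1 gene in the platform annotation, with symbols updated through a RefSeq table (GRCm38.p6). Values were transformed as log2(intensity + 16). Probe sets whose mean log2 value lay at or below the 40th percentile (18.4 on the intensity scale) were removed, leaving 27022. Heterozygous and wild-type brains were compared with limma 3.58.1 (R 4.3.3), with an intensity trend and no covariate, by a two-sided test at a threshold of 0.05 after Benjamini-Hochberg adjustment across the 27022. The steps were tested on simulated data. Precision is limited by having 3 arrays in each genotype. An exact permutation test of 3 against 3 brains cannot give a p below 0.1, so none is reported.

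The members and gene lists were chosen with earlier results of these data known. Each member probe set is given. The 2 highest and 2 lowest genes by moderated t are named for the lists of partners, astrocytes, oligodendrocytes, neurons and interneurons, each by its brightest tested probe set, and the 3 closest profiles for 1 probe set each of Gjd2, Gja1 and Gjc3. Alternatives were 2 normalizations, 2 pseudocounts, 2 filters, 2 variance models, a replicate block and leaving out each array. A covariate for the 3′ to 5′ control ratio was added after seeing the data.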

Additional observations from a re-analysis of the deposited data

How the results depend on the processing

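No member connexin and no other connexin or pannexin was called under any alternative run. Over the whole table, 4 probe sets were called, 1 with no dim filter, 1 with eBayes without trend, 12 with the 3′ to 5′ control ratio as a covariate (chosen after seeing the data), and 1 to 14 with single arrays left out: 14 without heterozygous 1, 1 without heterozygous 2, and 2 without heterozygous 3 or wild type 3. Of the 15 tested member probe sets, 9 kept their sign in each alternative in which they were measured. Those were Gjd2 1423019_at, Gja1 at 4 probe sets (1415800_at, 1438945_x_at, 1438650_x_at and 1415801_at), Gjb6, Gjb2, Gjc3 1422042_at and Gjc1 1449094_at. Of 233 alternative values, 1 moved by more than the spread within genotypes: Gjd2 1423019_at, at 0.34 with a pseudocount of 64, since a larger pseudocount shrinks dim signals. By construction, the filters, variance models and replicate block leave a difference unchanged. Leaving out 1 of 3 brains cannot move it beyond that spread. The count is thus no measure of stability for these alternatives. Gjd2 1423019_at gave no value with a pseudocount of 1, at the stricter filter or without any 1 heterozygous brain, because it then counted as dim. Gja1 1438650_x_at lay at -0.39 with the control ratio as a covariate. The mean log2 of both control ratios was 0.18 in heterozygous 1 and 0.13 to 0.14 in the other brains. The covariate thus mostly set heterozygous 1 apart, and without that brain Gja1 1438650_x_at lay at -0.40. Replicate numbers are shared between genotypes, but the title of heterozygous 1 has no number, and it was numbered by its order in the series. Deviations from the group means correlated at 0.08, 0.20 and -0.02 for same-numbered brains, and at -0.16 to 0.09 for the other pairs. With 3 brains in each genotype, these values cannot show whether the numbers pair the brains. With the replicate block 5 probe sets were called, none of them a connexin. Median centring lowered the median difference of all probe sets by 0.035.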

Other observations

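Markers of cell types that make few of these connexins were also read. Choroid plexus genes were 3 higher and 5 lower in sign among 8 (median -0.02), and microglial genes 5 higher and 4 lower among 9 (median 0.05). Pituitary hormone genes, which a dissection can include, varied far more between brains. The 6 measured genes summed to 185 to 6709 in heterozygous and to 791 to 21234 in wild-type brains. By mean log2 deviation wild type 1 was highest, at 3.03, and heterozygous 3 next, at 1.1, with the other brains at -1.52 to -0.53. No connexin had wild type 1 apart from the other 5 brains in this way, the closest being Gjc1 1447787_x_at, at 39.2 in wild type 1 and 18.5 to 28.3 elsewhere. Gjd2 1435297_at was highest in heterozygous 3 (151.7) and wild type 1 (144), the brains highest in pituitary genes, against 95.8 to 115.9 elsewhere. The part of pituitary tissue in the connexin values was not tested.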
